A study of Mus musculus with 18 samples.

Results

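Transcript levels of 10 genes that write, copy, erase or protect DNA methylation were compared in mouse oocytes, cumulus cells and blastocysts. The genes were chosen by name: the DNA methyltransferases Dnmt1, Dnmt3a and Dnmt3b, the cofactor Dnmt3l, the maintenance factor Uhrf1, the TET dioxygenases Tet1, Tet2 and Tet3, and the protectors Dppa3 and Zfp57. Each symbol matched 1 row of the deposited table of 52550 genes. The libraries came from C57BL/6 mice, and cumulus cells are the somatic cells that surround the oocyte. For each of the 3 tissues, 3 libraries belong to a group exposed to PM2.5, fine airborne particles, and 3 to a filtered-air group, which makes 18 libraries in 6 groups. No other allele, agent or treatment is named in the labels. None of the sources used here gives the dose, route, duration, age, cells per library or the parents of the blastocysts. Nothing says that libraries of one group are separate animals. A p-value here therefore sets a difference only against the spread of the libraries, and that spread may be technical.

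Methylation of cytosine in CG pairs is set anew by DNMT3A and DNMT3B, which DNMT3L stimulates although it has no catalytic activity of its own. It is copied after replication by DNMT1, which UHRF1 guides to half-methylated DNA. TET enzymes oxidise methylcytosine, and around fertilisation most marks are lost while imprinted regions keep theirs with the help of DPPA3 (also called PGC7 or STELLA) and of ZFP57, a zinc finger protein that binds a methylated motif.

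The values are log2(x + 1), where x is what the authors call a normalized count. A difference is therefore a log2 fold change that understates the change of low genes, and levels of different genes are not compared. Between 16426 and 17987 genes stood above 0 in a library, and read totals were not used here. Markers matched the labelled tissues: the mean log2 value of 8 oocyte markers was 8.16 to 8.98 in oocyte libraries, that of 6 cumulus and granulosa markers was 4.94 to 5.28 in cumulus libraries, although 1 of the 6 had a mean under 1 there, and that of 6 blastocyst markers was 7.07 to 7.48 in blastocyst libraries. Some markers were also measured in another tissue. The blastocyst markers Krt8 and Krt18 had group means of 4.38 to 5.54 in cumulus cells, and Pou5f1 had 3.13 and 3.29 in oocytes. In blastocysts the cumulus marker Nr5a2 had 4.43 and 4.47, and the oocyte marker Ooep 4.64 and 4.76. On the first principal component of the oocyte libraries, filtered-air replicate 3 stood apart at 21.5, while the other 5 lay between -8.07 and -0.49. In cumulus libraries the first component held 42.4% of the variance and separated the groups, with PM2.5 replicate 1 at -0.45 between filtered-air values of -20.7 to -6.25 and PM2.5 values of 17.03 and 24.5. In blastocyst libraries it held 27.5%, and replicate 1 of filtered air (15.8) and of PM2.5 (15.5) stood apart from the rest (-10.5 to -3.0).

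Start-site sequences from RefSeq (GRCm38.p6, which is mm10) show how far the members differ in CG content. The windows hold 250 bases before and 50 after an annotated start, 5′ to 3′ on the gene's strand, with each CG pair in capitals. Shown are 2 starts of Dnmt1 that lie 7265 bases apart, the poorest and the richest in CG of the 3 windows of that gene. The first start of Zfp57 follows, which like Dnmt1 was highest in oocytes. Last are the start of Dnmt3b, which was highest in blastocysts, and the first start of Dnmt3l, which was high in both oocytes and blastocysts.
Dnmt1, first start, chr9:20959839-20960138, minus strand: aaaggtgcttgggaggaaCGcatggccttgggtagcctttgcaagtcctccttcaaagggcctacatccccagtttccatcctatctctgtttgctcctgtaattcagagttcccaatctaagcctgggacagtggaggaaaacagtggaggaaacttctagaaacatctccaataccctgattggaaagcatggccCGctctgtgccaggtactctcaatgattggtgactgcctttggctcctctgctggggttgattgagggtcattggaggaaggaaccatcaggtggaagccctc
Dnmt1, last start, chr9:20952574-20952873, minus strand: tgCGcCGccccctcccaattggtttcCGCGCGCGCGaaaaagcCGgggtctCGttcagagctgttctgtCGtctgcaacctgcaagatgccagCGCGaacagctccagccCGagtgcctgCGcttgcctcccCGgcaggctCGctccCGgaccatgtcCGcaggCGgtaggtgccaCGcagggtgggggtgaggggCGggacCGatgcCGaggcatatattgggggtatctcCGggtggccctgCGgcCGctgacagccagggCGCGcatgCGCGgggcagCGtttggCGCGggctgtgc
Zfp57, first start, chr17:37000913-37001212, plus strand: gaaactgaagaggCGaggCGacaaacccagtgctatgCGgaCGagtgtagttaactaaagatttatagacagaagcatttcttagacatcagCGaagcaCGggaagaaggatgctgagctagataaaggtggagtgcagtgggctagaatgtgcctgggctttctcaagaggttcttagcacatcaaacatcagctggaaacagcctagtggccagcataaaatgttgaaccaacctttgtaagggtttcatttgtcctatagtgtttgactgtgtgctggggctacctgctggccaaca
Dnmt3b, chr2:153649199-153649498, plus strand: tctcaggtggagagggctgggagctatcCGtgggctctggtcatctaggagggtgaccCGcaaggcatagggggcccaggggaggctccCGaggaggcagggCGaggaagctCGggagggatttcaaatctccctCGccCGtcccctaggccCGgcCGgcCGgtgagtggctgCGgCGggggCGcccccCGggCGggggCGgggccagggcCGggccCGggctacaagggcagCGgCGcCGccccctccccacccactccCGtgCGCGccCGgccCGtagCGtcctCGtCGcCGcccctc
Dnmt3l, first start, chr10:78042037-78042336, plus strand: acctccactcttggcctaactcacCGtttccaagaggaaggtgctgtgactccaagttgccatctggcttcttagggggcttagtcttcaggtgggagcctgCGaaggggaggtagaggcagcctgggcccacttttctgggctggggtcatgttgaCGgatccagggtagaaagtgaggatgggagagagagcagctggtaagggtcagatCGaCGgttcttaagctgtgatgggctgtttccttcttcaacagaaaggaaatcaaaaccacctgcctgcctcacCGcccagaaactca

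The first Dnmt1 window holds 2 CG pairs and the last 33, with observed over expected CG of 0.10 and 0.91. The Zfp57 window holds 6 CG pairs (0.38), the Dnmt3b window 30 (0.69) and the Dnmt3l window 6 (0.27). Over all 32851 windows of the table the median was 7 CG pairs. RefSeq gave 18 windows for 9 members and none for Dppa3. Of these 18, 7 had a GC content over 50% with an observed over expected CG over 0.6, as did 33.3% of all windows. The 7 were the last Dnmt1 window, both windows of the first Dnmt3a starts (46 and 47 CG pairs), the Dnmt3b window, the second Uhrf1 window (33), the Tet1 window (17) and the Tet2 window (57). The 3 windows each of Dnmt3l (3 to 6 CG pairs) and Zfp57 (4 to 9) were all outside those limits. On both strands, the NOBOX element TAATTG was in none of the 18 member windows and in 8% of all windows, and the octamer ATGCAAAT was in none and in 1.74%. The GC box GGGCGG was in 12 of the 18 and in 35.7% of all, the CCAAT box CCAAT in 6 and in 37.4%, and the E-box CANNTG in 13 and in 72.3%. The table gives 1 value per gene, so the use of each start was not measured.

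Across tissues, the members showed 3 patterns of level. Dnmt1, Uhrf1, Tet3 and Zfp57 were highest in oocytes, Dnmt3b, Tet1 and Tet2 were highest in blastocysts, and Dppa3 and Dnmt3l were high in both and low in cumulus cells. Dnmt3a was highest in oocytes by a smaller margin. Tissues were compared within filtered air and within PM2.5 in 1 fit of all 18 libraries with limma. This linear model draws the spread of each gene toward that of genes of like level. The fit covered 7826 genes whose mean log2 value reached 3 in at least 1 tissue. Its p-values were adjusted by Benjamini-Hochberg and called under 0.05. Most genes differed between tissues: 87.7% between oocytes and cumulus cells, 87.9% between oocytes and blastocysts, and 69.3% between cumulus cells and blastocysts in filtered air, and 88.1%, 88.1% and 68.1% in PM2.5. A member that differed is therefore no exception. In oocytes against cumulus cells, 38.1% of genes were higher in oocytes in filtered air and 38.2% in PM2.5. The median difference over all tested genes lay off 0, at -0.45 for oocytes minus cumulus cells and -0.59 for oocytes minus blastocysts in filtered air, and at -0.20 and -0.24 after quantile normalization, so the members' values are to be read against those shifts. In bulk libraries, fewer cells of a type and less RNA per cell cannot be told apart.

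**Figure D1:**
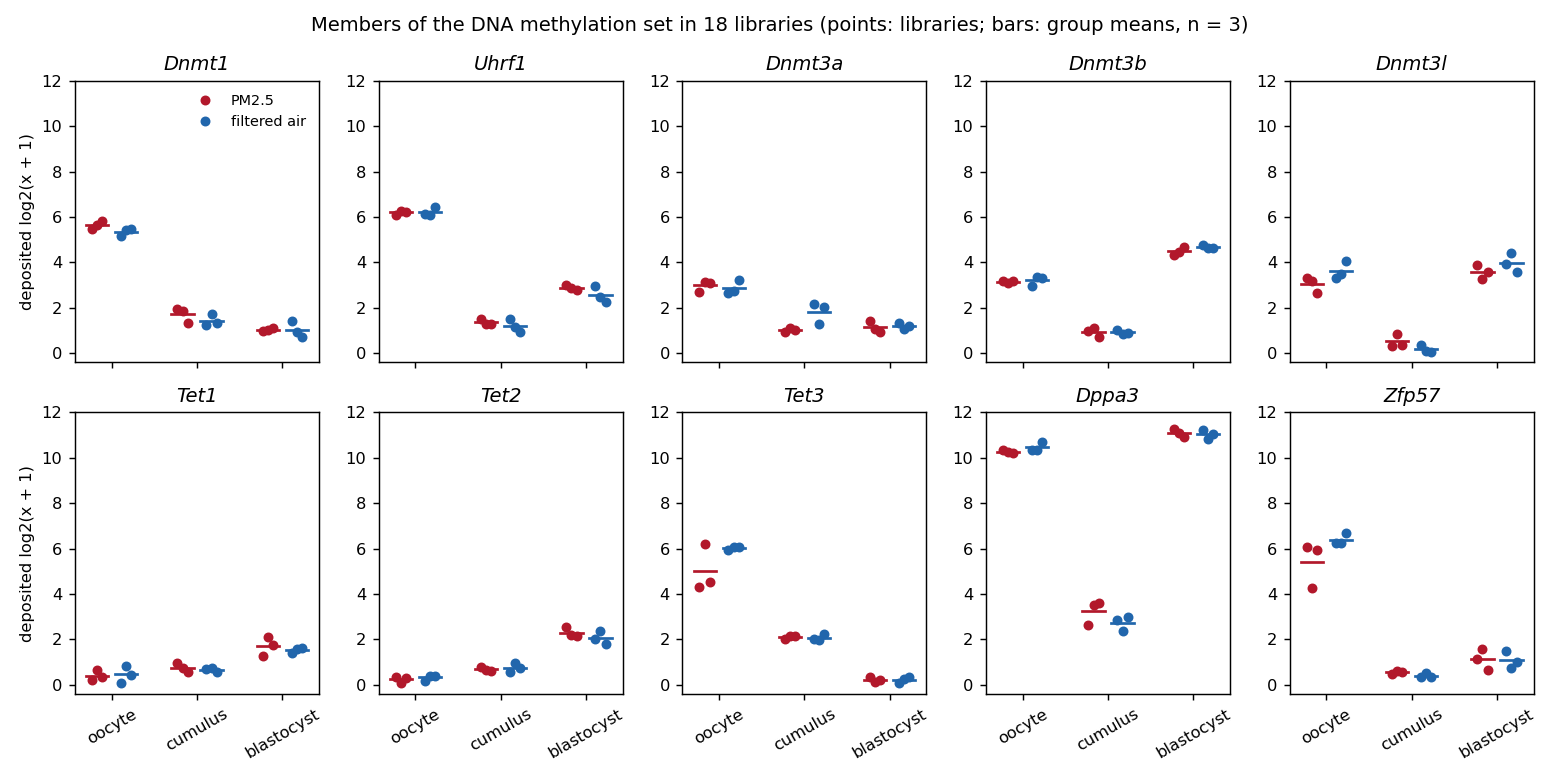
Deposited log2(x + 1) value of each member (vertical axis) in the 18 libraries by tissue (horizontal axis); points are libraries, bars are group means of 3, red is PM2.5 and blue is filtered air. Dppa3 stood above 10 in every oocyte and blastocyst library, and in PM2.5 oocytes replicate 2 was the highest of its group for Tet3 and the lowest for Zfp57.

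Dnmt1 (ENSMUSG00000004099, chromosome 9, 20907206 to 20959888), the maintenance methyltransferase, stood at log2 values of 5.15, 5.45 and 5.48 in filtered-air oocytes and 5.47, 5.63 and 5.84 in PM2.5 oocytes. It stood at 1.23 to 1.95 in the 6 cumulus libraries and at 0.72 to 1.43 in the 6 blastocyst libraries. All oocyte libraries were above all others. In filtered air the difference from cumulus cells was 3.93 (SE 0.21, adjusted p = 9.9e-12) and that from blastocysts was 4.34 (SE 0.21, adjusted p = 2.3e-12), and mean x was 37.4 times as high in oocytes as in blastocysts. Cumulus cells and blastocysts did not pass in filtered air, where they differed by 0.41 (SE 0.21, adjusted p = 0.089), and passed in PM2.5 at 0.69 (adjusted p = 0.0078). Without filtered-air blastocyst replicate 1, the difference in filtered air was 0.62 (adjusted p = 0.016).

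Uhrf1 (ENSMUSG00000001228, chromosome 17, 56303337 to 56323486), the partner that brings DNMT1 to replicated DNA, was also highest in oocytes and lay between in blastocysts. Its log2 values were 6.13, 6.07 and 6.44 in filtered-air oocytes, 1.52, 1.15 and 0.91 in filtered-air cumulus cells and 2.97, 2.49 and 2.26 in filtered-air blastocysts. The PM2.5 values were 6.11, 6.28 and 6.22 in oocytes, 1.51, 1.30 and 1.27 in cumulus cells and 2.99, 2.88 and 2.79 in blastocysts. The order oocyte, blastocyst, cumulus cell had no overlap in either exposure. In filtered air oocytes exceeded blastocysts by 3.64 (SE 0.19, adjusted p = 5.8e-12) and cumulus cells differed from blastocysts by -1.38 (SE 0.19, adjusted p = 4.7e-06).

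Dnmt3a (ENSMUSG00000020661, chromosome 12, 3801559 to 3914443), the main de novo enzyme of the growing oocyte, did not reach a mean of 3 in any tissue and was tested only with a lower minimum of 1, which took in 14162 genes. Its log2 values were 2.67, 2.73 and 3.22 in filtered-air oocytes and 2.71, 3.15 and 3.10 in PM2.5 oocytes, against 1.05 to 1.31 and 0.94 to 1.40 in the blastocysts. Oocytes exceeded blastocysts by 1.69 in filtered air (SE 0.22, adjusted p = 2.4e-06) and by 1.85 in PM2.5 (adjusted p = 8.5e-07). With the lower minimum, 81.1% and 80.9% of genes differed in those comparisons, and 81% and 81.6% between oocytes and cumulus cells. Oocytes exceeded cumulus cells by 1.05 in filtered air (adjusted p = 0.00037) and by 1.97 in PM2.5 (adjusted p = 3.8e-07). Cumulus cells exceeded blastocysts by 0.64 in filtered air (adjusted p = 0.019), where 63.1% of genes differed. In PM2.5 that difference was -0.12 and did not pass (adjusted p = 0.68), while 61.8% of genes differed.

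Dnmt3b (ENSMUSG00000027478, chromosome 2, 153649411 to 153687730), the de novo enzyme known from the epiblast, was higher in blastocysts than in oocytes, the reverse of Dnmt1, and lowest in cumulus cells. Its log2 values were 4.79, 4.65 and 4.63 in filtered-air blastocysts and 4.32, 4.46 and 4.67 in PM2.5 blastocysts, 2.97 to 3.36 in oocytes and 0.71 to 1.13 in cumulus cells. Blastocysts were above oocytes, and oocytes above cumulus cells, with no overlap. The difference of oocytes from blastocysts was -1.48 in filtered air (SE 0.15, adjusted p = 6.8e-08) and -1.34 in PM2.5 (adjusted p = 2.4e-07), and mean x was 2.98 times as high in filtered-air blastocysts as in filtered-air oocytes.

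Dnmt3l (ENSMUSG00000000730, chromosome 10, 78042287 to 78063622), the cofactor needed for maternal imprints, stood at log2 values of 3.31, 3.49 and 4.08 in filtered-air oocytes and 3.94, 4.41 and 3.59 in filtered-air blastocysts. In PM2.5 the values were 3.32, 3.18 and 2.66 in oocytes and 3.89, 3.28 and 3.56 in blastocysts. Cumulus values were 0.04 to 0.85. Oocytes and blastocysts overlapped in both exposures and did not pass, with differences of -0.35 in filtered air (SE 0.26, adjusted p = 0.20) and -0.52 in PM2.5 (adjusted p = 0.066). After quantile normalization the difference in filtered air was 0.037, so its direction depends on the scaling. In PM2.5 it passed without oocyte replicate 1 (-0.65, adjusted p = 0.044) and without blastocyst replicate 2 (-0.67, adjusted p = 0.037). Both tissues exceeded cumulus cells, oocytes by 3.45 in filtered air (SE 0.26, adjusted p = 9.8e-10).

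Among the erasers, Tet3 (ENSMUSG00000034832, chromosome 6, 83362373 to 83457208), the dioxygenase that acts on the paternal genome in the zygote, was highest in oocytes. Its log2 values were 5.95, 6.06 and 6.05 in filtered-air oocytes, 1.97 to 2.22 in cumulus cells over both exposures, and 0.07 to 0.35 in blastocysts. No library of one tissue reached into the next. In filtered air oocytes exceeded cumulus cells by 3.95 (SE 0.33, adjusted p = 4.1e-09), and cumulus cells exceeded blastocysts by 1.85 (SE 0.33, adjusted p = 8.2e-05).

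Tet1 (ENSMUSG00000047146, chromosome 10, 62804570 to 62887469) and Tet2 (ENSMUSG00000040943, chromosome 3, 133463677 to 133545136), known from pluripotent cells, had means under 3 in all tissues and were tested with the lower minimum. Tet1 log2 values were 1.40, 1.57 and 1.61 in filtered-air blastocysts and 1.24, 2.12 and 1.75 in PM2.5 blastocysts, against 0.08 to 0.84 in oocytes. Tet2 values were 1.99, 2.36 and 1.81 in filtered-air blastocysts and 2.54, 2.17 and 2.14 in PM2.5 blastocysts, against 0.09 to 0.40 in oocytes. Blastocysts did not overlap with either other tissue in either gene. The difference of oocytes from blastocysts in filtered air was -1.08 for Tet1 (SE 0.22, adjusted p = 0.00023) and -1.74 for Tet2 (SE 0.16, adjusted p = 3.6e-08). Tet2 was also lower in oocytes than in cumulus cells, by a difference of -0.43 in filtered air (adjusted p = 0.021), while Tet1 did not pass there (-0.21, adjusted p = 0.39).

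Dppa3 (ENSMUSG00000046323, chromosome 6, 122626424 to 122630271), the maternal protein that shields methylated DNA from TET3 in the zygote, stood at log2 values of 10.33, 10.36 and 10.69 in filtered-air oocytes and 10.33, 10.25 and 10.22 in PM2.5 oocytes. In blastocysts it stood at 11.25, 10.81 and 11.05 in filtered air and at 11.27, 11.08 and 10.94 in PM2.5. Blastocysts lay above oocytes without overlap, by a difference of oocytes from blastocysts of -0.58 in filtered air (SE 0.23, adjusted p = 0.024) and -0.83 in PM2.5 (adjusted p = 0.0026). That call rests on the scaling: after quantile normalization the differences were -0.05 (adjusted p = 0.86) and -0.33 (adjusted p = 0.24). In filtered air it was also lost on leaving out oocyte replicate 1 (-0.51, adjusted p = 0.073) or 2 (-0.53, adjusted p = 0.067), or blastocyst replicate 1 (-0.47, adjusted p = 0.092) or 3 (-0.57, adjusted p = 0.0503). Processed copies of Dppa3 are known in the mouse genome, and how the authors' counting treated them is not given in the sources used here.

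Zfp57 (ENSMUSG00000036036, chromosome 17, 37001163 to 37010729), which recruits silencing factors to imprinted regions, stood at log2 values of 6.24, 6.24 and 6.68 in filtered-air oocytes, 1.48, 0.74 and 0.99 in filtered-air blastocysts and 0.32 to 0.60 in the cumulus libraries. Oocytes exceeded blastocysts by 5.32 in filtered air (SE 0.36, adjusted p = 2.4e-10). Cumulus cells and blastocysts did not pass in filtered air (-0.67, adjusted p = 0.11) or in PM2.5 (-0.57, adjusted p = 0.17). In filtered air they passed on the log2(x + 0.1) scale (-1.50, adjusted p = 0.012) and in a fit of those 6 libraries alone (adjusted p = 0.020).

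**Figure D2:**
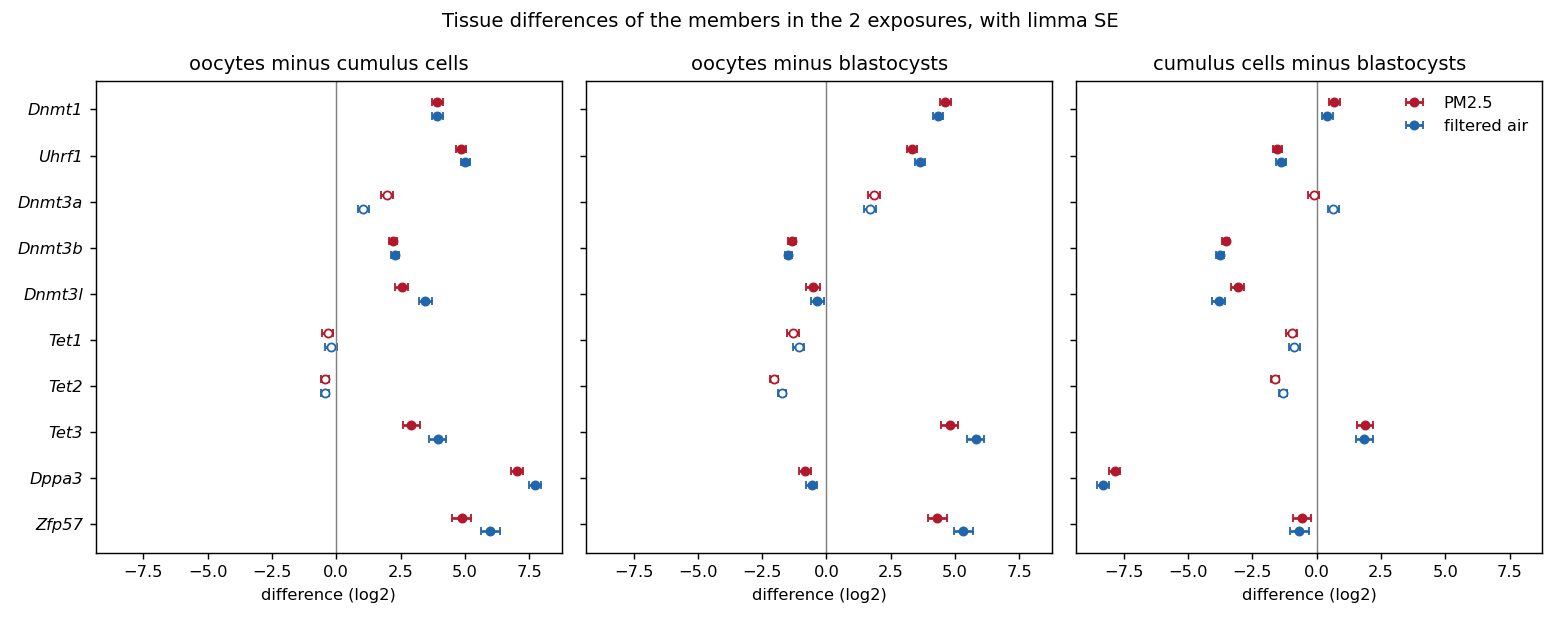
Difference of each member between 2 tissues (horizontal axis, log2; members on the vertical axis) in PM2.5 (red) and in filtered air (blue), with the SE of the 18-library fit; filled points were tested at a mean of at least 3 and open points at a mean of at least 1. The oocyte minus cumulus difference of Dnmt3a was 1.05 in filtered air and 1.97 in PM2.5, and those of Dppa3 were 7.73 and 7.03.

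Oocyte marker transcripts were measured at low levels in the cumulus libraries, and the members' cumulus levels are given beside them. Percentages are of the mean x over all 6 oocyte libraries, both exposures together. The 8 oocyte markers had medians of 0.447%, 0.734% and 0.654% in the PM2.5 cumulus libraries and 0.340%, 0.424% and 0.552% in the filtered-air ones, with single markers between 0% and 1.217%. Dppa3 stood at 0.384%, 0.796% and 0.828% in PM2.5 and 0.474%, 0.311% and 0.520% in filtered air. Zfp57 stood at 0.583%, 0.781% and 0.732% in PM2.5 and 0.376%, 0.673% and 0.409% in filtered air. Its mean x was 47.9 in PM2.5 oocytes and 83.7 in filtered-air oocytes, so its percentages depend on taking both exposures together. Dppa3 lay within the range of the 8 markers of the same library in 5 of 6 cumulus libraries and above it in 1, and Zfp57 lay within it in 4 and above it in 2. Gdf9, an oocyte growth factor, was at 0.415%, 0.709% and 0.687% in PM2.5 and 0.341%, 0.462% and 0.461% in filtered air. Dnmt1, Uhrf1, Dnmt3a, Dnmt3b and Tet3 were above all 8 markers in all 6 libraries, Tet3 at 5.76% to 7.21% and Uhrf1 at 1.20% to 2.54%. Dnmt3l was above them in 5 and below them in 1. How much of each cumulus value came from oocytes was not tested.

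**Figure D3:**
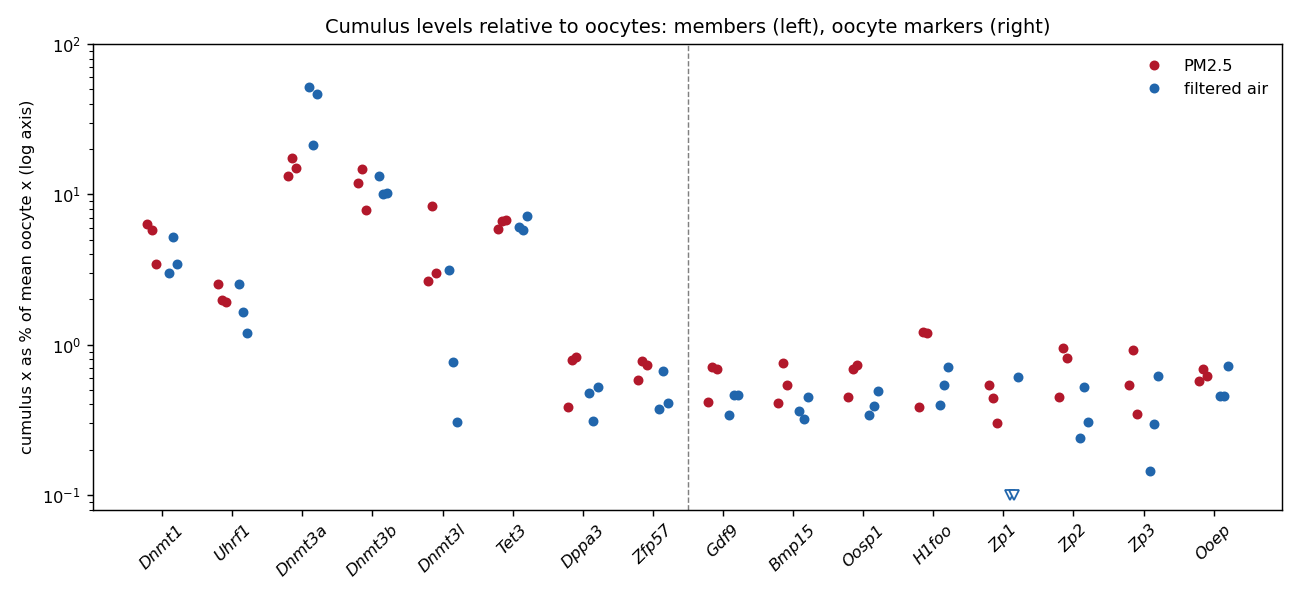
Value of x in each cumulus library as a percentage of the mean over all 6 oocyte libraries (vertical log axis), for 8 members (left of the dashed line) and 8 oocyte markers (right); red is PM2.5, blue is filtered air, and open triangles at the foot are values of 0. Dppa3 (0.311% to 0.828%) and Zfp57 (0.376% to 0.781%) lie within the 0% to 1.217% that the markers span over all cumulus libraries.

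By Pearson correlation over the 6 group means, among 5253 genes, the genes closest in pattern were named for the 7 members with a mean of at least 3 in a tissue, which leaves out Dnmt3a, Tet1 and Tet2. For Dnmt1 they were Ptpn21 and Nlrp4a (both 0.9996), for Uhrf1 Wdr76 and Plpp1 (both 0.9993), for Tet3 Poc1b and Atp11a (both 0.9975), and for Zfp57 BB557941 and Gna14 (both 0.9993). For Dnmt3b they were Pou5f1 (0.9988), the pluripotency factor also called Oct4, and Xlr3b (0.9978). For Dnmt3l they were Zfp936 (0.9946) and Glrx (0.9935), and for Dppa3 Ap1m2 (0.9988) and Nedd4l (0.9986). These describe 6 points that share their tissues.

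PM2.5 was then compared with filtered air in each tissue on its 6 libraries. In oocytes 7 of the 10 members reached a mean of 3 and were tested, with none called, beside 9 of 4080 genes or 0.221%. Dnmt3a, at a mean of 2.93, was tested only at the lower minimum, and Tet1 and Tet2 at neither. Of the 7 differences 6 were below 0, as were 57.7% of all tested genes, whose median was -0.035. The members with the widest difference were Tet3 and Zfp57, and each turned on 1 library.

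Tet3 stood at log2 values of 4.29, 6.20 and 4.54 in PM2.5 oocytes and 5.95, 6.06 and 6.05 in filtered-air oocytes. PM2.5 replicates 1 and 3 were below all filtered-air libraries and replicate 2 was above them, so the groups overlapped. The means were 5.01 ± 1.04 and 6.02 ± 0.06 (SD, n = 3 each, log2), and the difference of -1.01 (SE 0.45, adjusted p = 0.60) did not pass limma's test. Without PM2.5 replicate 2 the difference was -1.61 and passed (adjusted p = 0.0073). In PM2.5 oocytes 53 of the 4080 genes (1.30%) had an SD at least as large as that of Tet3, beside a median SD of 0.16.

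Zfp57 stood at 6.05, 4.28 and 5.93 in PM2.5 oocytes and 6.24, 6.24 and 6.68 in filtered-air oocytes. Here replicate 2 was the low library, and all 3 PM2.5 values lay below all filtered-air values, as they did in 10.3% of tested genes. The means were 5.42 ± 0.99 and 6.39 ± 0.26 (SD, n = 3 each, log2), and the difference of -0.97 (SE 0.44, adjusted p = 0.61) did not pass. Without PM2.5 replicate 2 it was -0.40 (adjusted p = 0.76). PM2.5 replicate 2 lay at least 1 log2 unit below both other PM2.5 libraries in 17 of 4080 genes (0.417%), Zfp57 among them, and at least 1 above both in 9 (0.221%), Tet3 among them. Ehmt1, a histone H3 lysine 9 methyltransferase subunit, was also low there (3.37, 1.80 and 3.0 against 3.58, 3.49 and 3.47) and did not pass (adjusted p = 0.61).

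Dnmt3l differed by -0.57 in oocytes (SE 0.26, adjusted p = 0.60), with means of 3.06 ± 0.35 in PM2.5 and 3.63 ± 0.40 in filtered air. Its high value was that of filtered-air replicate 3, and without that library the difference was -0.35 (adjusted p = 0.63). Dnmt1 differed by 0.29 (SE 0.14, adjusted p = 0.63), with means of 5.65 ± 0.19 and 5.36 ± 0.18, and was the only tested member above 0. Dppa3 differed by -0.19 (SE 0.12, adjusted p = 0.70), and by -0.08 without filtered-air replicate 3. Dnmt3b differed by -0.07 (SE 0.15, adjusted p = 0.92) and Uhrf1 by -0.01 (SE 0.12, adjusted p = 0.99), and both changed sign under an alternative. Dnmt3a differed by 0.11 at the lower minimum (SE 0.21, adjusted p = 0.91), where 0.197% of 8612 genes were called.

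In cumulus cells no member reached a mean of 3, where 8 of 4780 genes or 0.167% were called. At the lower minimum 5 members were tested and none called, beside 8 of 10487 genes or 0.0763%. Dnmt3a was the member that stood apart. Its log2 values were 0.92, 1.12 and 1.0 in PM2.5 and 2.16, 1.28 and 2.04 in filtered air. The groups did not overlap, with PM2.5 lower, as in 8.49% of tested genes, and filtered-air replicate 2 was the nearest to the PM2.5 libraries. The means were 1.02 ± 0.10 and 1.83 ± 0.48 (SD, n = 3 each, log2), and mean x was 1.03 and 2.67. The difference of -0.81 (SE 0.25) did not pass (adjusted p = 0.27), and with 1 library left out at a time it lay between -1.08 and -0.65 with adjusted p from 0.18 to 0.58.

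Cell type markers were read in the same cumulus libraries, with no test. Each of the 8 oocyte markers had a higher mean in PM2.5 than in filtered air. The means were 3.88 and 3.43 for Gdf9, 2.86 and 2.39 for Bmp15, 3.89 and 3.33 for Oosp1 and 3.82 and 3.25 for H1foo. Those of Zp1, Zp2, Zp3 and Ooep were under 1. The log2 sum of the oocyte markers overlapped (5.05 to 5.99 and 4.79 to 5.36). Groups did not overlap in 22.1% of all genes tested at the lower minimum. The log2 of the summed level of 5 stroma markers was 2.15 to 2.21 in PM2.5 and 1.41 to 1.69 in filtered air. Its 3 collagen genes had higher means in PM2.5 (Col1a1 1.36 and 0.81, Col3a1 1.06 and 0.53, Col1a2 0.39 and 0.19), while Tagln (0.56 and 0.61) and Dcn (0.04 and 0.08) did not. The sum of 4 oviduct epithelium markers was 0.97 to 1.94 in PM2.5 and 0 to 0.29 in filtered air and rested on Ovgp1 (means 1.45 and 0.11), with Foxj1 and Krt7 at 0 in all 6 libraries and Pax8 above 0 in 1. The sum of 6 cumulus and granulosa markers was 9.38 to 9.65 and 8.88 to 9.12. It followed Inha, an inhibin subunit (8.47, 8.63 and 9.0 in PM2.5 and 7.62, 7.83 and 7.85 in filtered air), while the means were 7.25 and 7.28 for Fst, 6.05 and 5.99 for Nr5a2 and 6.03 and 6.19 for Inhba. The 7 leukocyte markers overlapped as a sum (6.40 to 7.52 and 6.50 to 7.03). S100a9 (means 0.61 in PM2.5 and 3.12 in filtered air) and S100a8 (0.41 and 1.57) had lower means in PM2.5, and Cd52 (5.44 and 4.71), Tyrobp (4.38 and 3.99), Laptm5 (1.88 and 1.69), Ptprc (0.46 and 0.18) and Lyz2 (5.72 and 5.65) had higher ones. The 5 erythroid markers also overlapped as a sum (1.58 to 9.39 and 1.55 to 9.81). Each of the 5 had a lower mean in PM2.5, such as Hbb-bs at 3.46 and 5.34. The part of what these markers measure in the Dnmt3a difference was not tested.

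The other cumulus members tested were Dnmt1 (0.28, SE 0.23, adjusted p = 0.54), Uhrf1 (0.17, SE 0.20, adjusted p = 0.68), Tet3 (0.02, SE 0.16, adjusted p = 0.96) and Dppa3 (0.50, SE 0.30, adjusted p = 0.41). Dppa3 log2 values were 2.61, 3.53 and 3.58 in PM2.5 and 2.86, 2.36 and 2.98 in filtered air. The groups overlapped. Those of the oocyte marker Gdf9 were 3.42, 4.14 and 4.09 in PM2.5 and 3.16, 3.56 and 3.56 in filtered air. Those of Bmp15, another oocyte marker, were 2.49, 3.26 and 2.82 in PM2.5 and 2.35, 2.20 and 2.61 in filtered air. In PM2.5 replicate 1 was the lowest for Dppa3, Gdf9 and Bmp15, but not for the markers Zp1 and Zp3. In filtered air replicate 2 was the lowest for Dppa3 and Bmp15, and replicate 1 for Gdf9. Dnmt3b, Dnmt3l, Tet1, Tet2 and Zfp57 had means under 1 in cumulus cells and were not tested.

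In blastocysts limma called 0 of 4834 genes (0%), while 191 or 3.95% had an unadjusted p under 0.05 and the lower minimum called 2 of 10044 (0.0199%). The 3 tested members were not called. Dnmt3b differed by -0.21 (SE 0.17, adjusted p = 0.998), with means of 4.48 ± 0.18 in PM2.5 and 4.69 ± 0.09 in filtered air. Dnmt3l differed by -0.40 (SE 0.26, adjusted p = 0.998), with means of 3.58 ± 0.30 and 3.98 ± 0.41, and Dppa3 by 0.06 (SE 0.17, adjusted p = 0.998). At the lower minimum, Dnmt1 (0.01), Dnmt3a (-0.05), Uhrf1 (0.31), Tet1 (0.17), Tet2 (0.23) and Zfp57 (0.04) were not called (adjusted p = 0.997 or above), and Tet3, with all 6 libraries between 0.07 and 0.35, was not tested. The exposure groups overlapped for all 10 members. Over all genes, groups did not overlap in 8.52% of those tested at a mean of 3 and in 9.37% at the lower minimum.

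**Figure D4:**
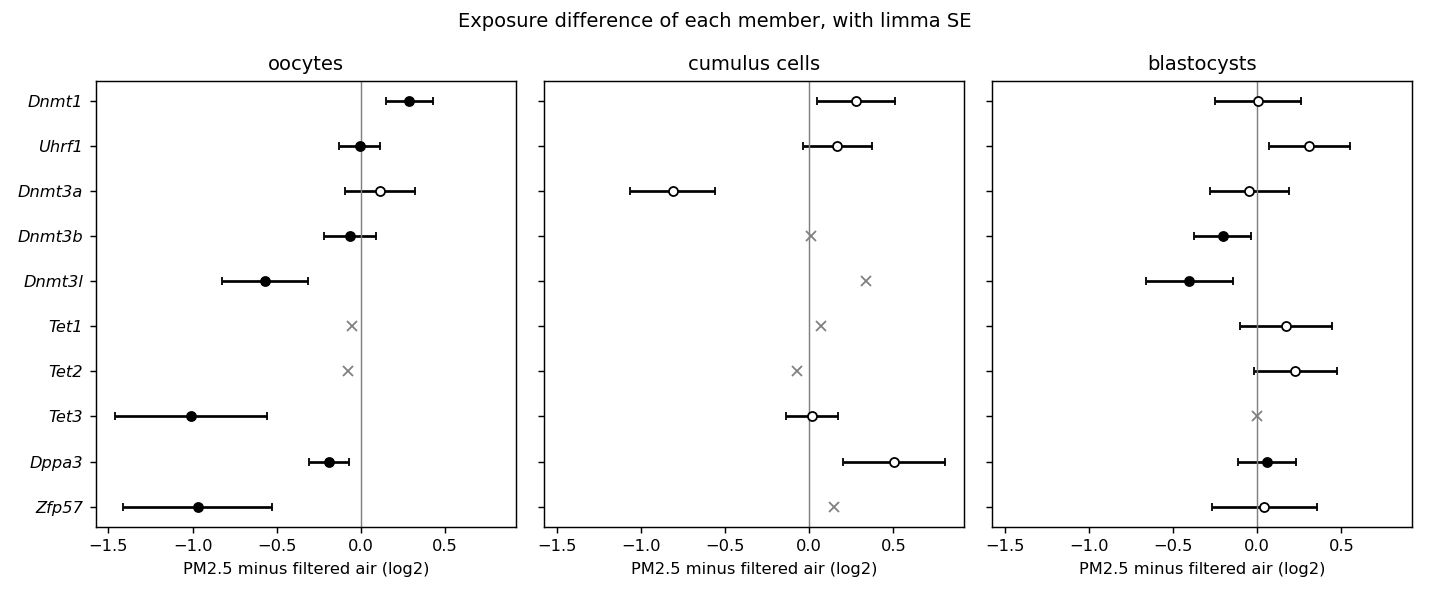
PM2.5 minus filtered-air difference of each member (horizontal axis, log2) in the 3 tissues, with the limma SE; filled points were tested at a mean of at least 3, open points at a mean of at least 1, and crosses were not tested. No difference passed, and those of Tet3 and Zfp57 in oocytes (-1.01 and -0.97) and Dnmt3a in cumulus cells (-0.81) lie farthest from 0.

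The 18-library fit also tested whether tissues differed in their response to exposure, as a difference of differences. At a mean of 3 in both tissues only Dnmt3b, Dnmt3l and Dppa3 could be tested, for oocytes minus blastocysts, with values of 0.14, -0.17 and -0.25 (adjusted p = 0.93, 0.94 and 0.92), beside 0 of 2054 genes called (0%; 2 of 5973 or 0.0335% at the lower minimum). At the lower minimum the difference of Dnmt3a was 0.92 for oocytes minus cumulus cells (SE 0.32, adjusted p = 0.26) and -0.76 for cumulus cells minus blastocysts (SE 0.32, adjusted p = 0.28), where 0.241% and 0.171% of genes were called. Tet3 had -1.03 for oocytes minus cumulus cells (SE 0.46, adjusted p = 0.38), and Zfp57 had -1.01 for oocytes minus blastocysts (SE 0.51, adjusted p = 0.80). Oocytes minus cumulus cells gave -0.70, -0.17 and 0.007 for Dppa3, Uhrf1 and Dnmt1 (adjusted p = 0.39, 0.84 and 0.996). Oocytes minus blastocysts gave 0.28, 0.16 and -0.32 for Dnmt1, Dnmt3a and Uhrf1 (adjusted p = 0.94, 0.96 and 0.92). Cumulus cells minus blastocysts gave 0.27, -0.14 and 0.45 for Dnmt1, Uhrf1 and Dppa3 (adjusted p = 0.70, 0.84 and 0.52). These comparisons share libraries with the ones within tissues.

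Beyond the members, 54 genes in 7 lists of the same pathway were read from the same fits. Of these, 22 were tested in oocytes, 21 in cumulus cells and 23 in blastocysts. None was called in either direction, beside 0.221%, 0.167% and 0% of all tested genes. At the lower minimum 37, 47 and 39 list genes were tested and none called, beside 0.197%, 0.0763% and 0.0199% of all. In oocytes 8 lay above 0 and 14 below, in cumulus cells 13 and 8, and in blastocysts 9 and 14, beside 57.7%, 41.3% and 52.4% of all tested genes below 0. By list, the largest medians were in removal of modified cytosine in cumulus cells (0.40 over 4 genes) and methyl donor supply in blastocysts (0.21 over 3), beside 0.087 and -0.011 over all tested genes. Cumulus groups did not overlap for 4 list genes, as for 26.3% of tested genes. Among these were Kdm1a, a histone H3 lysine 4 demethylase (0.54, adjusted p = 0.21), Gadd45a, a stress gene (0.27, adjusted p = 0.25), and the methyl-CpG reader Mbd2 (-0.31, adjusted p = 0.21), none of which passed. Gadd45b, a stress gene linked to demethylation, overlapped (0.54, adjusted p = 0.19).

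Of the remaining lists, those nearest to passing stayed far from it. Among maintenance partners, Pcna, the replication clamp, and Hells, a remodeller, differed in oocytes by -0.21 and -0.05 (adjusted p = 0.65 and 0.91), and Pcna by 0.17 in cumulus cells (adjusted p = 0.56). In blastocysts Pcna and Hells differed by -0.23 and -0.10 (both adjusted p = 0.998). Among readers, Zbtb33 differed in oocytes by -0.14 (adjusted p = 0.84) and Mbd3 in cumulus cells by 0.13 (adjusted p = 0.51). Among partners of ZFP57, Trim28, the corepressor it recruits, differed in cumulus cells by 0.29 (adjusted p = 0.28), Cbx1 by -0.15 and Ctcf by -0.16 in oocytes (adjusted p = 0.76 and 0.77), and Ctcf by 0.38 in blastocysts (adjusted p = 0.998). Setd2, whose histone mark guides DNMT3A, differed by -0.16 in cumulus cells (adjusted p = 0.55) and -0.43 in blastocysts (adjusted p = 0.998). Mat2a, which makes the methyl donor, had log2 values of 6.14, 6.63 and 2.04 in PM2.5 blastocysts and 2.98, 3.77 and 3.73 in filtered air, an overlap with a single low library (1.44, SE 0.97, adjusted p = 0.998). In oocytes the uracil glycosylase Smug1 differed by -0.06 (adjusted p = 0.88), Gadd45a by -0.25 (adjusted p = 0.72) and Kmt2b by 0.24 (adjusted p = 0.72), while Mat2a and Mat2b differed by 0.46 and -0.07 (adjusted p = 0.75 and 0.85). In cumulus cells Ahcy, which clears the spent methyl donor, differed by 0.15 (adjusted p = 0.46), Mat2a by 0.61 (adjusted p = 0.47), Cbx1 by 0.23 (adjusted p = 0.33) and Cxxc5 by 0.12 (adjusted p = 0.61). In blastocysts Mbd2, Mbd3, Gadd45g, Setdb1, Kdm1a, Ahcy, Ddb1 and Idh1 differed by -0.18 to 0.21 (each adjusted p = 0.998). Among TET cofactors, Ogt differed in cumulus cells by -0.57 (adjusted p = 0.34) and Idh1 and Ddb1 in oocytes by -0.20 and 0.16 (adjusted p = 0.74 and 0.71).

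Levels by tissue are given for 4 list genes chosen after their values were seen, with no test; Kdm1b, Ehmt2 and Uhrf2 are outside the naming rule. The mean log2 value of Hells was 5.36 ± 0.13 in filtered-air oocytes, 1.42 ± 0.34 in cumulus cells and 3.43 ± 0.05 in blastocysts, the order seen for Uhrf1. Kdm1b, the demethylase that clears histone marks ahead of maternal imprinting, stood at 6.20 ± 0.32 in oocytes, 2.40 ± 0.12 in cumulus cells and 1.54 ± 0.45 in blastocysts. Ehmt2, the partner of Ehmt1, was the reverse, at 0.12 ± 0.12, 2.79 ± 0.12 and 3.39 ± 0.25. Uhrf2, the relative of Uhrf1, stood at 0.29 ± 0.03, 2.12 ± 0.18 and 0.70 ± 0.29 (SD, n = 3 each).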

How the data were processed

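RNA was sequenced from lysed cells that were reverse transcribed directly, tailed with poly(A) and amplified, per the labels' protocols. The authors deposited log2 values, log2(x + 1) of a normalized count, for 52550 genes in 18 libraries. FastQC, Cuffnorm and DESeq 1.22.1 with the mm10 build are named in the submitters' processing notes, without role or order. The sources used here name no aligner or annotation. The unlogged x was used for folds and percentages only.

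Fits used limma 3.58.1 in R 4.3.3 (lmFit, eBayes with trend), two-sided, with Benjamini-Hochberg adjustment over all tested genes and a threshold of 0.05. Exposure was fitted on the 6 libraries of a tissue (mean log2 of at least 3, at least 3 libraries above 0), tissue and interaction contrasts on 18 libraries. Alternatives were a mean of at least 1, no filter, quantile normalization, log2(x + 0.1), an 18-library fit, a replicate block and leaving out each library; those for Dnmt3a in cumulus cells at a mean of at least 1 were added after seeing the data. The 10 members, the lists and the naming rule (all members, and of each list those that passed or else the 2 with the smallest p per tissue) were chosen with earlier results of these data known. The values of 1 list gene are not reported here. On simulated data a log2 change of 1 was recovered in 79% of genes in oocytes (4080 genes), 62% in cumulus cells (4780) and 55% in blastocysts (4834). The simulation changed 100 genes by 1 and 100 by 2 log2 units at once, with independent normal noise. It gave 183, 159 and 157 calls, against 9, 8 and 0 in the data. With fewer calls the adjusted threshold is stricter, so these shares do not give the power to detect a change in a member. Replicate numbers come from the labels. Deviations of same-numbered libraries from their group means correlated at 0.115 to 0.134 between oocytes and cumulus cells in PM2.5, over the 0.1 taken to mark pairing, but at -0.154 to -0.0954 between the same tissues in filtered air, and at -0.244 to 0.183 between PM2.5 and filtered air within a tissue, so the numbers were not taken to pair exposure groups. Between PM2.5 and filtered air in blastocysts, same-numbered libraries correlated at -0.0254 to 0.183 and the others at -0.192 to 0.174. Sequences and coordinates came from RefSeq tables (GRCm38.p6), matched by symbol.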

Additional observations from a re-analysis of the deposited data

How the results depend on the processing

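These counts cover only members tested at a mean of at least 3. For the exposure difference these were 7 in oocytes, 3 in blastocysts and none in cumulus cells. Of 120 member values of the exposure difference under an alternative, 113 kept direction and side of the threshold, 6 changed sign and 1 newly passed (Tet3 in oocytes without PM2.5 replicate 2). Of 462 tissue values 450 kept both, and of 45 differences of differences 42 did.

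Counts over all genes moved more. In oocytes 9 genes were called, 17 at a mean of at least 1, 5 with no filter, 27 in the 18-library fit and 2 to 11 with 1 library left out, the lowest without filtered-air replicate 3. In cumulus cells 8 were called, 5 with no filter, 103 in the 18-library fit and 6 to 559 with 1 left out, the highest without PM2.5 replicate 1. In blastocysts 0 were called, 2 at a mean of at least 1, 1 with no filter, 2 in the 18-library fit and 0 to 4 with 1 left out. At a mean of at least 1, tissue contrasts called 11472 and 11558 genes (oocytes and cumulus cells, filtered air and PM2.5), 11489 and 11457 (oocytes and blastocysts) and 8933 and 8756 (cumulus cells and blastocysts). For the difference of exposure differences, oocytes minus cumulus cells gave 8 calls, 2 after quantile normalization and 1 to 63 with 1 left out, oocytes minus blastocysts 0, 2 and 0 to 7, and cumulus cells minus blastocysts 9 and, with 1 left out, 6 to 93. The cause of these moves was not tested.

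With the replicate block, 3 genes were called in oocytes, 3 in cumulus cells and 1 for oocytes minus cumulus cells, where 8 were called without it; the block changed no member's call. The labels do not say whether same-numbered libraries of PM2.5 and filtered air share more than that number. In blastocysts both libraries numbered 1 stood apart on the first component, and the reason was not tested.

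Signs changed for Uhrf1 in oocytes (0.050 after quantile normalization, -0.079 to 0.11 with 1 left out), Dnmt3b in oocytes (-0.19 to 0.0088), Dppa3 in blastocysts (-0.055 to 0.17), and Dnmt3l for oocytes minus blastocysts, both in the exposure difference (-0.38 to 0.059) and in filtered air (0.037 after quantile normalization). Read depth behind low values such as Tet1, Tet2 and cumulus Dnmt3a is unknown here, which limits what their spread can show.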

Other observations

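Outside the naming rule, and chosen after its values were seen, Tdg, the glycosylase that removes oxidised methylcytosine, had a mean log2 value of 2.63 ± 0.95 in PM2.5 cumulus cells and 0.99 ± 0.41 in filtered-air cumulus cells (SD, n = 3 each), below the mean of 3 needed for the test, and it was not called at the lower minimum. Cbx3, a heterochromatin protein with near-identical copies in the genome, had an SD of 2.54 in PM2.5 and 2.58 in filtered-air blastocysts, far above the spread of the members there.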
